A study of Mus musculus with 82 samples.

Results

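The genes described here are 37 genes of the cell cycle and DNA replication, chosen by name, from the D cyclins that start G1 to the kinases of the spindle checkpoint. Of these, 36 were measured among 18193 genes on Affymetrix mouse arrays, on 86 probe sets. Ccnb1, which encodes cyclin B1, had no probe set annotated to it alone in the annotation used and was not analysed here. RNA came from mouse embryonic fibroblasts (MEFs, 23 arrays) and primary mouse hepatocytes (59 arrays) of C57BL/6 background. The cells were either AMPK α1-/-α2-/-, without the α1 and the α2 catalytic subunit of the AMP-activated protein kinase (called dKO), or controls (WT). Each genotype received 991, AICAR or vehicle (DMSO) for 4 h, which gives 12 groups of cell type, genotype and treatment. The dose of 991 was 10 µM in MEFs and 3 µM in hepatocytes. That of AICAR was 2 mM in MEFs and 300 µM in hepatocytes, so neither compounds nor cell types were matched in dose. The MEFs had 3 arrays for WT cells with 991 and 4 for each other group, all of them technical replicates per the labels. A p-value in MEFs therefore measures technical spread only, and in MEFs the genotype cannot be told apart from the cell stock that carries it. The hepatocytes came from 2 preparations per genotype, plated with serum, insulin and T3 and kept overnight in medium with dexamethasone in every group. The 5 technical replicates of each preparation and treatment (4 for vehicle in dKO preparation 1) were averaged, so n = 2 preparations in each hepatocyte group.

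A dividing cell passes through G1, copies its DNA in S phase and separates the copies in mitosis. D cyclins, and then E cyclins with Cdk2, release E2F transcription factors from the retinoblastoma protein. E2F activators then drive the genes for origin licensing, in which Cdc6 and Cdt1 load the Mcm2 to Mcm7 helicase onto DNA, and those for nucleotide supply and DNA synthesis, while E2f7 and E2f8 repress the same targets. A later set of genes, for cyclin B, Cdk1 and the spindle checkpoint, is controlled through CCAAT boxes and the cell cycle genes homology region (CHR). AMPK, an energy sensor, restrains growth and the cell cycle. The compound 991 binds AMPK directly, and AICAR is taken up and phosphorylated to ZMP, an AMP mimic that also acts on other enzymes. Adult hepatocytes in the liver are mostly quiescent, whereas cultured MEFs divide.

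Promoter windows from RefSeq (GRCm38.p6), 250 bases before to 50 bases after a start listed for the gene, were at hand for 30 of the 37 genes, with the unmeasured Ccnb1 among the 30. That start is the outer 5′ end of the gene for 18 of the 30 and lies inside the gene for 12, by 442 bases for Cdc6, 512 for Cdc25b and 228 for Mcm7, and 5 windows lie wholly inside the gene, those of Cdc6 and Cdc25b among them. They were searched on both strands for an E2F site (TTTCCCGC, TTTCGCGC, TTTGCCGC or TTTGGCGC), a CHR (TTTGAA or TTCGAA) and the CCAAT box (CCAAT). An E2F match was present in 11 of the 30 windows, against 2.32% of 27025 gene windows, a CHR match in 14, against 19.4%, and a CCAAT match in 25, against 37.9%. The windows printed belong to genes on which the results below turn, and capitals mark the matches. For Cdt1, Cdc6, E2f7 and Mcm7 these are the E2F matches, at chr8:122567765-122568064 (+ strand), chr11:98907901-98908200 (+ strand), chr10:110745189-110745488 (+ strand) and chr5:138171834-138172133 (- strand). Cdt1 and Cdc6 load the helicase, E2f7 is the repressor, and Mcm7 is a helicase subunit.
Cdt1: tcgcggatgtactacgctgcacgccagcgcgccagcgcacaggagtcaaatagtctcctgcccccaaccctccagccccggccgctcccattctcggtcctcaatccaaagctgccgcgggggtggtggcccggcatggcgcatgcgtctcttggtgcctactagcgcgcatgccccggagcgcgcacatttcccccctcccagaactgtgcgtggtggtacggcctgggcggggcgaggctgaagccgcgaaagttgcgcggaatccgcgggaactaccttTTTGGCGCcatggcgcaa
Cdc6: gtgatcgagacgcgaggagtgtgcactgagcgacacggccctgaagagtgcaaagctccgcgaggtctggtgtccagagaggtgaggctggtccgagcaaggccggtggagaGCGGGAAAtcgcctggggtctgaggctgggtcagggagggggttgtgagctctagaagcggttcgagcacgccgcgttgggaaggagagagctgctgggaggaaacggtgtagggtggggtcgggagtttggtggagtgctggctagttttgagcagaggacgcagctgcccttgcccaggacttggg
E2f7: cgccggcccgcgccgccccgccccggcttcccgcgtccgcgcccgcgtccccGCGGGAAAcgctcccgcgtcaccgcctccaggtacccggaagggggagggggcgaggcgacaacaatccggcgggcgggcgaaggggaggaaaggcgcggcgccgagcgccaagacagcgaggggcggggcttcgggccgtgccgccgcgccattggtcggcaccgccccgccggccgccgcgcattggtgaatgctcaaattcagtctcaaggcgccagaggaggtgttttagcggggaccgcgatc
Mcm7: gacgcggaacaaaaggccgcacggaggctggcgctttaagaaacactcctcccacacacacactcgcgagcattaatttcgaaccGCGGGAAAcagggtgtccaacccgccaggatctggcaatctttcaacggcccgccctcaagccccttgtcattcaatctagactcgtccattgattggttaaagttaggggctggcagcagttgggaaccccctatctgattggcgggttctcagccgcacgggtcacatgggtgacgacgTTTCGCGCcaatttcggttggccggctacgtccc
For Ccnb2, the second B-type cyclin, and Cdc25b, a phosphatase that activates Cdk1, the capitals mark the CHR and CCAAT matches in the windows chr9:70421505-70421804 (- strand) and chr2:131186698-131186997 (+ strand).
Ccnb2: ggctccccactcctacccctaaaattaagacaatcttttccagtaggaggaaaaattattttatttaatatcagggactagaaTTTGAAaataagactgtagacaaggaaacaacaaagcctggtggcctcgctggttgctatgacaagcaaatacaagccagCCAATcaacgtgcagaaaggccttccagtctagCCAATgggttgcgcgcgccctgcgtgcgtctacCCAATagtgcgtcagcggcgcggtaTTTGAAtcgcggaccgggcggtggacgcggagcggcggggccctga
Cdc25b: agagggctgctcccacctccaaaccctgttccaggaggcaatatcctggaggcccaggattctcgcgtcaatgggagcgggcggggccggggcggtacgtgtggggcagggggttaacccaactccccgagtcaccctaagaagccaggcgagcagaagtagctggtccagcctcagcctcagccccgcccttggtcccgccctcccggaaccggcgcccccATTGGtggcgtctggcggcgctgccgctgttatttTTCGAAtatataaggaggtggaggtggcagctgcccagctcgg
A match is a string of letters and not a measured site. Of the 11 measured genes with an E2F match, 7 rose and 2 fell with AICAR in dKO MEFs, and 7 rose and 1 fell in WT MEFs. Of the 18 measured genes with a window and no E2F match, 7 rose and 4 fell in dKO MEFs, and 8 rose and 3 fell in WT MEFs.

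Values are log2 intensities per probe set as deposited, and a difference of 1 is a 2-fold change. The median of an array was 6.158 to 6.246 for MEFs and 5.877 to 6.078 for hepatocytes. The interquartile range was 3.733 to 3.886 in WT MEFs with 991, 3.687 to 3.768 with AICAR and 3.582 to 3.742 with vehicle. In dKO MEFs it was 3.6 to 3.805, 3.671 to 3.851 and 3.653 to 3.726. Quantile normalization, which evens out this spread, is given below as an alternative. Prkaa1, which encodes AMPK α1, averaged 8.26 ± 0.08 in dKO and 8.35 ± 0.13 in WT MEFs with vehicle (SD, n = 4 each). In hepatocytes with vehicle it averaged 4.52 ± 0.09 in dKO and 5.63 ± 0.13 in WT cells (SD, n = 2 each). Prkaa2, which encodes AMPK α2, averaged 5.89 ± 0.10 in dKO and 6.21 ± 0.13 in WT MEFs. In hepatocytes it averaged 9.60 ± 0.05 in dKO and 9.69 ± 0.03 in WT cells. Of these 4 differences the one for Prkaa2 in MEFs passed the test (-0.32 ± 0.08, adjusted p = 0.00116). Between dKO and WT hepatocytes with vehicle 0% of all genes passed it. The missing call for Prkaa1 there is therefore no sign of equal levels. No source used here says whether these probes lie in the deleted part of either gene, so these levels are no check of the genotype labels. Of the 7 measured hepatocyte markers all lay above the median gene in hepatocytes. Of the 6 Kupffer cell and macrophage markers, none lay below it in any hepatocyte group. Their summed intensity was 11.01 to 11.38 in dKO and 11.89 to 12.38 in WT hepatocytes with vehicle. The part of these cells in the levels of the cell cycle genes was not tested. Of the 8 fibroblast markers, Thy1, Pdgfra, Dcn and Lum lay below the median gene in MEFs of every group.

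The cell cycle genes were at lower levels in hepatocytes than in MEFs. On the same probe set, each of the 36 measured genes was lower in WT hepatocytes with vehicle than in WT MEFs with vehicle, with a median difference of -4.32, while all probe sets had a median of -0.18 and 61.4% of them were lower. The differences ran from -8.26 for Bub1, a kinase of the spindle checkpoint, to -1.16 for E2f2, an E2F activator. In MEFs 35 of the 36 genes lay at or above the median gene, and in hepatocytes 15 did. No source used here says whether MEF and hepatocyte arrays were normalized as one set, so these differences are a description with no test. In whole cultures, fewer cells of a type and less RNA per cell cannot be told apart.

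AICAR moved more of the cell cycle genes in MEFs than 991 did, in cells with and without AMPK, but doses differed and both compounds were compared with the same vehicle arrays. With AICAR, 16 of the 36 genes rose and 10 fell in dKO MEFs (limma, Benjamini-Hochberg adjusted p under 0.05), where 20.4% of all genes rose and 19.8% fell. In WT MEFs 17 rose and 6 fell, where 19.6% of all genes rose and 15.5% fell. Both genotypes shared 14 rises and 5 falls, and 7 genes were called in dKO MEFs alone and 4 in WT MEFs alone. No gene called in both moved in opposite directions, but E2f1 and E2f2, each called in a single genotype, had opposite signs. The share of all genes called in both genotypes was not counted, so the shared counts mark no trait of these genes. The median difference of the 36 genes was 0.07 in dKO and 0.09 in WT MEFs, against -0.02 and -0.01 for all genes. The largest folds were those of Cdc25b (1.61) and Ccne2 (1.58), both lower in dKO MEFs. Of 8 fibroblast markers 2 rose and 4 fell with AICAR in dKO MEFs and 4 fell in WT MEFs, and their part in these changes was not tested.

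**Figure D1:**
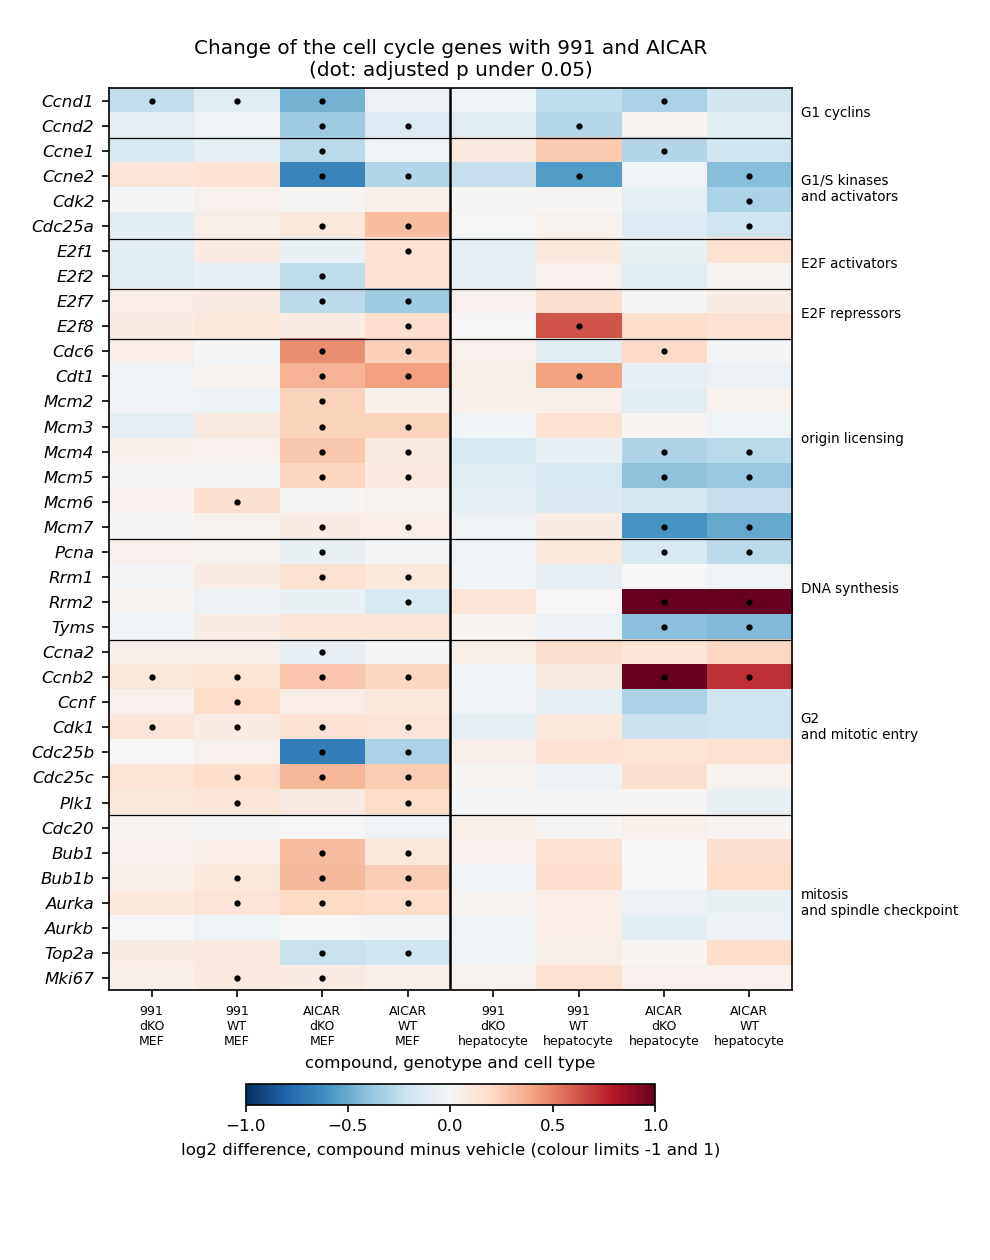
Heat map of the log2 difference between compound and vehicle for the 36 measured genes (rows, by role) with 991 and AICAR in dKO and WT MEFs and hepatocytes (columns), with a dot at an adjusted p under 0.05 and colours that end at -1 and 1. With AICAR, 7 of the 8 origin licensing genes rose in dKO and 6 in WT MEFs, whereas in hepatocytes 3 fell in each genotype and Cdc6 rose in dKO cells.

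Among the G1 cyclins, Ccnd1 fell with AICAR in dKO MEFs. Cyclin D1, its product, activates Cdk4 and Cdk6. Its levels were 11.24, 11.23, 11.21 and 11.26 in dKO MEFs with AICAR, against 11.71, 11.72, 11.72 and 11.68 in dKO MEFs with vehicle. The groups did not overlap, and the difference was -0.47 ± 0.03 (SE, adjusted p = 7.31e-14). In WT MEFs Ccnd1 had 11.23, 11.22, 11.26 and 11.27 with AICAR, against 11.25, 11.32, 11.35 and 11.28 with vehicle, and these groups overlapped. The WT difference was -0.06 ± 0.03 (adjusted p = 0.177), and the effect in dKO minus that in WT was -0.41 ± 0.04 (adjusted p = 5.46e-08). The dKO and WT arrays with AICAR overlapped, whereas all 4 dKO arrays with vehicle lay above all 4 WT arrays with vehicle. Ccnd2, which encodes cyclin D2, fell by 0.36 in dKO MEFs and by 0.14 in WT MEFs, and its effect differed by -0.22 ± 0.05 (adjusted p = 0.00156). Of the 7 probe sets of Ccnd2, 5 in dKO and 6 in WT MEFs had the sign of the one used, and 4 did for the difference between genotypes. With the mean of its probe sets that difference was -0.03 and was not called.

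The E cyclins, which activate Cdk2 at the start of S phase, also fell. Ccne2 levels were 9.33, 9.31, 9.38 and 9.39 in dKO MEFs with AICAR, against 9.97, 10.01, 9.97 and 10.10 with vehicle. In WT MEFs they were 9.86, 9.62, 9.62 and 9.60 with AICAR, against 9.95, 10.02, 9.80 and 10.10 with vehicle. The arrays with AICAR lay below those with vehicle in dKO MEFs, and in WT MEFs 1 array with AICAR lay above 1 with vehicle. Ccne2 fell by 0.66 ± 0.07 in dKO MEFs and by 0.29 ± 0.07 in WT MEFs (adjusted p = 3.70e-09 and 0.00142), and the effects differed by -0.37 ± 0.10 (adjusted p = 0.0140). Ccne1 fell by 0.27 ± 0.06 in dKO MEFs, while in WT MEFs it differed by -0.04. Cdk2 passed the test in neither genotype. Cdc25a, the phosphatase that activates Cdk2, instead rose, by 0.11 in dKO and 0.31 in WT MEFs, and its effect differed by -0.20 ± 0.06 (adjusted p = 0.0227). The dKO rise of Cdc25a ended as a call when dKO vehicle replicate 1, 3 or 4 (0.11, 0.10 and 0.10) or dKO AICAR replicate 2 or 3 (0.09 and 0.11) was left out, and the difference between genotypes when dKO vehicle replicate 2 (-0.19) or WT vehicle replicate 1 (-0.18) was left out.

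The E2F factors split. E2f7, a repressor, had 9.54, 9.53, 9.52 and 9.46 in dKO MEFs with AICAR, against 9.82, 9.77, 9.78 and 9.74 with vehicle. In WT MEFs it had 9.89, 9.91, 9.87 and 9.91 with AICAR, against 10.21, 10.35, 10.22 and 10.22 with vehicle. In both genotypes every array with AICAR was below every array with vehicle. E2f7 fell by 0.26 ± 0.04 in dKO and by 0.36 ± 0.04 in WT MEFs (adjusted p = 3.49e-07 and 1.71e-09), and the difference between these effects was not called (0.09, adjusted p = 0.306). E2f8, the other repressor, rose by 0.17 ± 0.04 in WT MEFs and differed by 0.07 in dKO MEFs (adjusted p = 0.173). The activator E2f2 fell by 0.25 ± 0.08 in dKO MEFs and differed by 0.15 in WT MEFs, and E2f1 rose by 0.14 ± 0.05 in WT MEFs and differed by -0.08 in dKO MEFs. Their effects differed between genotypes by -0.40 ± 0.11 for E2f2 (adjusted p = 0.0139) and -0.22 ± 0.07 for E2f1 (adjusted p = 0.0291). Both calls for E2f1 lay close to the threshold. Its rise in WT MEFs ended as a call without WT AICAR replicate 2 or 3 (0.12 each) or WT vehicle replicate 1 or 4 (0.13 and 0.11), and its difference without any of 8 arrays, with values from -0.21 to -0.19.

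Origin licensing was the role with the most rises. In dKO MEFs 7 of its 8 genes rose with AICAR and in WT MEFs 6 did, and none fell. Cdt1, which brings the Mcm helicase to the origin, had 12.98, 13.02, 13.03 and 13.02 in dKO MEFs with AICAR, against 12.66, 12.67, 12.68 and 12.65 with vehicle. In WT MEFs it had 12.82, 12.77, 12.78 and 12.78 with AICAR, against 12.39, 12.34, 12.42 and 12.35 with vehicle. Neither genotype showed any overlap. The rises of Cdt1 were 0.35 ± 0.02 in dKO and 0.41 ± 0.02 in WT MEFs (adjusted p = 3.49e-14 and 1.21e-15), and the difference between them was not called (adjusted p = 0.214). All 3 probe sets of Cdt1 had the same sign in both genotypes.

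Cdc6, the ATPase that loads the helicase together with Cdt1, had 11.32, 11.31, 11.28 and 11.29 in dKO MEFs with AICAR, against 10.87, 10.80, 10.84 and 10.84 with vehicle. In WT MEFs it had 10.78, 10.69, 10.78 and 10.76 with AICAR, against 10.44, 10.62, 10.47 and 10.52 with vehicle. The groups did not overlap in either genotype. Cdc6 rose by 0.47 ± 0.04 in dKO and 0.24 ± 0.04 in WT MEFs (adjusted p = 7.30e-11 and 2.27e-05), and the rise was larger in dKO MEFs by 0.23 ± 0.06 (adjusted p = 0.0101). The helicase subunits Mcm3, Mcm4, Mcm5 and Mcm7 rose in both genotypes, by 0.22, 0.27, 0.22 and 0.08 in dKO MEFs and by 0.23, 0.09, 0.10 and 0.07 in WT MEFs. Mcm2 rose in dKO MEFs, by 0.23, and differed by 0.05 in WT MEFs, and Mcm6 passed in neither. The effect was larger in dKO MEFs for Mcm4 (0.18 ± 0.04, adjusted p = 6.97e-04) and Mcm5 (0.12 ± 0.03, adjusted p = 0.0137). Mcm4 has 2 probe sets, and the mean of both gave -0.044 in WT MEFs, a turned sign.

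**Figure D2:**
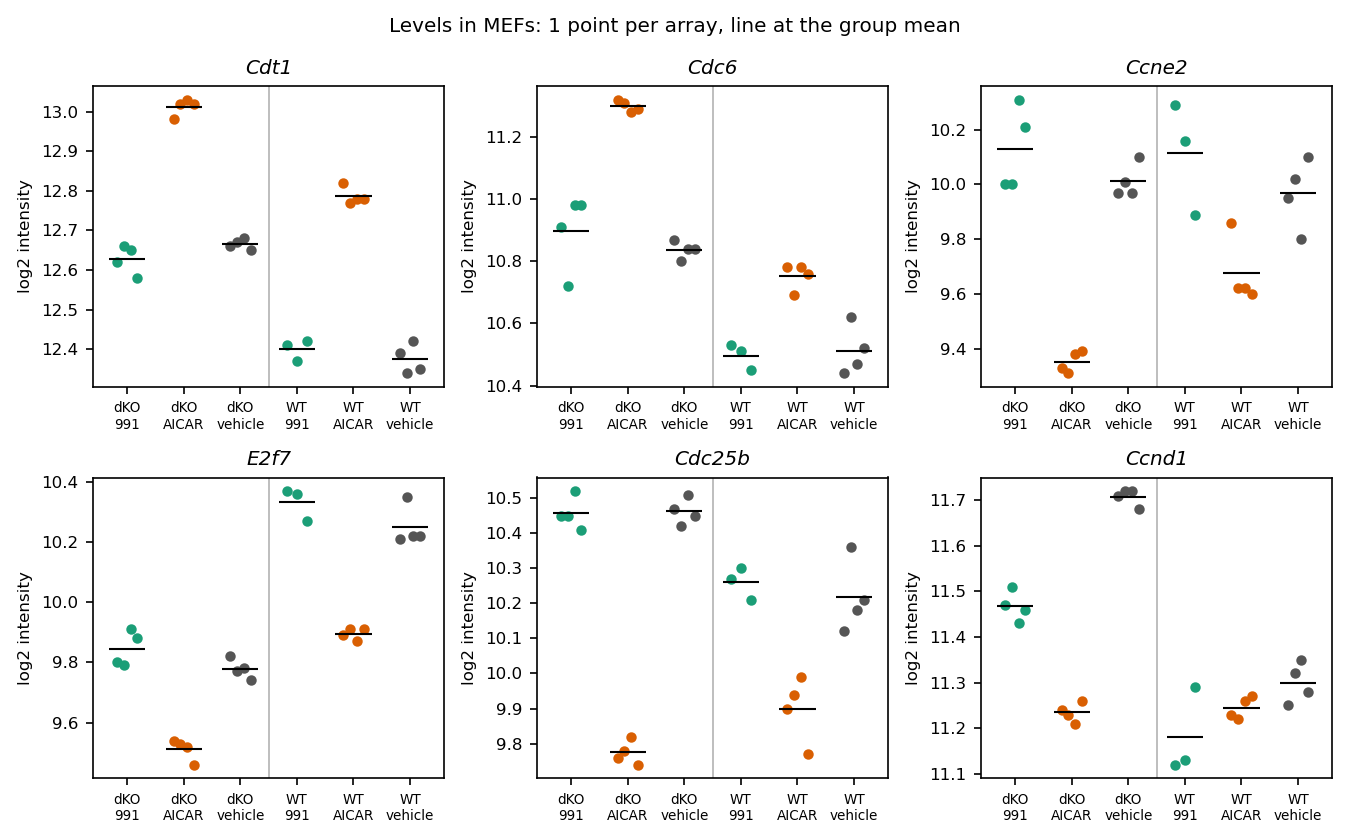
Log2 intensity of Cdt1, Cdc6, Ccne2, E2f7, Cdc25b and Ccnd1 on each MEF array, by genotype and treatment, with a line at the group mean. Cdt1 and Cdc6 with AICAR lie above vehicle and E2f7 and Cdc25b below it in both genotypes, and Ccnd1 with AICAR lies below vehicle without overlap in dKO MEFs.

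Genes of DNA synthesis moved in both directions with AICAR. Rrm1, the large subunit of ribonucleotide reductase, rose by 0.15 in dKO and 0.10 in WT MEFs. Rrm2, the small subunit, fell by 0.16 ± 0.03 in WT MEFs (adjusted p = 2.27e-04) and differed by -0.07 in dKO MEFs. Pcna, the sliding clamp, fell by 0.07 in dKO MEFs and differed by -0.01 in WT MEFs, and Tyms, thymidylate synthase, passed in neither genotype. The WT rise of Rrm1 ended as a call without WT vehicle replicate 1 or WT AICAR replicate 2 (0.08 each).

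Of the 7 genes of G2 and mitotic entry, 3 rose and 2 fell in dKO MEFs, and 4 rose and 1 fell in WT MEFs. Of the 7 genes of mitosis, 4 rose and 1 fell in dKO MEFs, and 3 rose and 1 fell in WT MEFs. Cdc25b levels were 9.76, 9.78, 9.82 and 9.74 in dKO MEFs with AICAR, against 10.47, 10.42, 10.51 and 10.45 with vehicle. In WT MEFs they were 9.90, 9.94, 9.99 and 9.77 with AICAR, against 10.12, 10.36, 10.18 and 10.21 with vehicle. Every array with AICAR lay below every array with vehicle of its genotype. Cdc25b fell by 0.69 ± 0.04 in dKO and by 0.32 ± 0.04 in WT MEFs (adjusted p = 2.27e-14 and 4.88e-07), and the effects differed by -0.37 ± 0.06 (adjusted p = 8.76e-05). Its relative Cdc25c rose, by 0.33 ± 0.05 in dKO and 0.26 ± 0.05 in WT MEFs, as did Ccnb2, by 0.28 ± 0.03 and 0.21 ± 0.03, and Cdk1, the kinase that both phosphatases activate, by 0.15 and 0.13. Plk1, a kinase of mitotic entry, rose by 0.18 in WT MEFs and differed by 0.08 in dKO MEFs. Ccna2, which encodes cyclin A2, fell by 0.08 in dKO MEFs, a call that ended without dKO AICAR replicate 1 (-0.07).

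At the spindle checkpoint, Bub1b rose by 0.32 ± 0.03 in dKO and 0.25 ± 0.03 in WT MEFs and Bub1 by 0.31 ± 0.04 and 0.10 ± 0.04. The rise of Bub1 was larger in dKO MEFs by 0.21 ± 0.05 (adjusted p = 0.00710), and its WT rise ended as a call without WT AICAR replicate 1 (0.09) or WT vehicle replicate 1 or 3 (0.08 and 0.10). Aurka, a centrosome kinase, rose by 0.20 in dKO and 0.18 in WT MEFs. With the mean of its 2 probe sets the WT change of Aurka was 0.045 and was not called. Mki67, the gene of the Ki-67 antigen, rose by 0.08 in dKO MEFs, a call that ended without any of 5 arrays, with values from 0.07 to 0.08. Top2a, the topoisomerase that untangles replicated DNA, fell by 0.23 in dKO and 0.20 in WT MEFs on the probe set used. The mean of its 3 probe sets turned the sign, with 0.013 in dKO and 0.038 in WT MEFs. Cdc20 and Aurkb passed in neither genotype.

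The effect of AICAR differed between the genotypes for 11 of the 36 MEF genes, where 4.18% of all genes had a higher and 7.93% a lower effect in dKO MEFs. It was more positive in dKO MEFs for Cdc6, Bub1, Mcm4 and Mcm5 and more negative for Ccnd1, E2f2, Cdc25b, Ccne2, Ccnd2, E2f1 and Cdc25a. Of the 11, 9 kept this call with each array left out in turn, the others being Cdc25a and E2f1. With the mean of all probe sets the call also ended for Bub1 (0.18), Mcm5 (0.09), Ccnd2, Cdc25a and E2f1, and without the intensity trend for Ccne2 (-0.37), Mcm5 and E2f1.

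**Figure D3:**
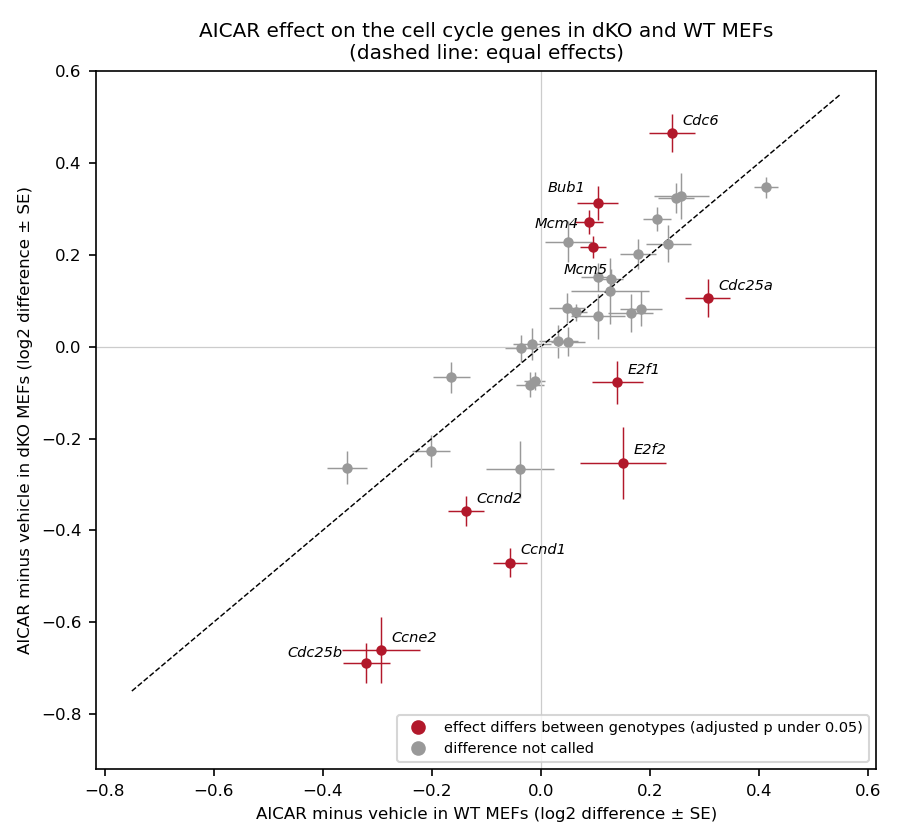
AICAR effect on each of the 36 genes in WT MEFs (horizontal) and dKO MEFs (vertical), as log2 differences with their SE, with a dashed line at equal effects. The 11 named genes in red have an effect that differs between genotypes, with Ccnd1 at -0.47 in dKO and -0.06 in WT MEFs and Cdc6 at 0.47 and 0.24.

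With 991 fewer of the genes were called in MEFs, at a different dose. In dKO MEFs Cdk1 and Ccnb2 rose and Ccnd1 fell, where 1.88% of all genes rose and 1.58% fell, and the count was 5 without dKO 991 replicate 1. In WT MEFs 9 rose and 1 fell, where 14.0% rose and 5.65% fell. Ccnd1 had 11.47, 11.51, 11.43 and 11.46 in dKO MEFs with 991, against 11.71, 11.72, 11.72 and 11.68 with vehicle, and these arrays did not overlap. It fell by 0.24 ± 0.03 in dKO MEFs (adjusted p = 4.06e-05) and by 0.12 ± 0.03 in WT MEFs (adjusted p = 0.0113). The WT call ended without WT 991 replicate 2 or 3 (-0.09 and -0.10). With 991, 5.93% of all genes lay wholly above and 4.61% wholly below vehicle in dKO MEFs, and 16.1% and 9.94% in WT MEFs.

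Ccnb2 rose with 991 by 0.11 ± 0.03 in dKO and by 0.14 ± 0.03 in WT MEFs (adjusted p = 0.0111 and 8.66e-04). Its levels were 11.59, 11.62, 11.69 and 11.64 in dKO MEFs with 991, against 11.51, 11.53, 11.54 and 11.51 with vehicle. In WT MEFs they were 11.62, 11.65 and 11.59 with 991, against 11.45, 11.52, 11.48 and 11.47 with vehicle. No overlap was seen in either genotype, and the dKO call ended without dKO 991 replicate 3 (0.10). Cdk1 rose by 0.12 ± 0.02 in dKO and 0.08 ± 0.02 in WT MEFs. The other rises in WT MEFs were Ccnf and Cdc25c (0.18 each), Mcm6 (0.16), Aurka (0.13), Plk1 (0.12), Bub1b (0.11) and Mki67 (0.10). After quantile normalization Ccnf, Cdc25c and Aurka were at 0.10 each, Mki67 and Plk1 at 0.08 each and Bub1b at 0.06, with no call. Of the 10 WT calls, Ccnb2 and Mcm6 held with each array left out in turn, and the count dropped to 3 without WT vehicle replicate 1 or WT 991 replicate 3 and to 4 without WT 991 replicate 2. It was 15 without WT vehicle replicate 2. The rise of Mcm6 is that of 1 of its 3 probe sets, and their mean gave -0.0047.

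No gene of the 36 had a 991 effect that differed between dKO and WT MEFs in the test (limma, adjusted p under 0.05), where 0.912% of all genes had a higher and 4.37% a lower effect in dKO MEFs. At an unadjusted p under 0.05 none was higher and 5 were lower. Without WT vehicle replicate 2, 4 of the 36 were called at the adjusted p. The share of all genes is not given for either count, so neither can be set against it. In MEFs, AICAR and 991 were also set against each other at their different doses. AICAR was higher than 991 for 14 genes and lower for 9 in dKO MEFs (18.9% and 19.7% of all genes), and higher for 8 and lower for 7 in WT MEFs (11.3% and 16.6%). Cdt1 was higher with AICAR than with 991 by 0.38 ± 0.02 in both genotypes, and Ccne2 was lower by 0.78 ± 0.07 in dKO and by 0.44 ± 0.08 in WT MEFs.

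With vehicle, 17 of the 36 genes were higher and 12 lower in dKO than in WT MEFs, where 28.0% of all genes were higher and 19.2% lower. Among the regulators of G1, Ccnd1 (0.40 ± 0.03) and Ccne1 (0.56 ± 0.06) were higher and Ccnd2 was lower (-0.62 ± 0.03). Both E2F activators were higher, and both repressors were lower. E2f2 had 8.11, 8.25, 8.14 and 8.17 in dKO MEFs, against 7.19, 7.14, 6.94 and 7.14 in WT MEFs. These groups did not overlap, and the difference was 1.06 ± 0.08 (adjusted p = 3.20e-13). Of all genes 26.8% lay wholly above and 19.0% wholly below WT in dKO MEFs with vehicle. E2f7 was lower by 0.47 ± 0.04 and E2f8 by 0.18 ± 0.04 in dKO MEFs. With the mean of its probe sets E2f8 was at -0.12 and was not called. E2f1 was higher by 0.28 ± 0.05.

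Of the origin licensing genes, 7 of 8 were higher in dKO MEFs, led by Mcm3 (0.44 ± 0.04), Mcm6 (0.37 ± 0.04) and Cdc6 (0.32 ± 0.04), and Mcm5 did not pass. Tyms was higher by 0.62 ± 0.07 on the probe set used, but the mean of its 4 probe sets gave 0.0039 and no call. Pcna and Rrm1 were higher, by 0.20 and 0.11, and Rrm2 was lower, by 0.18. Of the 7 genes of G2 and mitotic entry, 1 was higher, Cdc25b (0.24 ± 0.04), and 4 were lower, with Cdc25c at -0.30 ± 0.05. At the checkpoint Bub1b was higher (0.35 ± 0.03) and Bub1 lower (-0.13 ± 0.04). Aurka was lower by 0.14, which turned to 0.086 with the mean of its probe sets, and Mcm4 was higher by 0.14, which turned to -0.022.

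Markers of cell identity differed between the MEFs as well. Of 8 fibroblast markers 6 were lower in dKO MEFs and none was higher, with a median difference of -1.12. Their summed intensity was between 12.12 and 12.23 (log2) in dKO MEFs with vehicle, against 14.52 to 14.56 in WT MEFs with vehicle. The 4 cholangiocyte markers were also lower, with a summed intensity of 9.71 to 9.76 in dKO and 10.54 to 10.72 in WT MEFs with vehicle. The part of these marker differences in the levels of the cell cycle genes was not tested.

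**Figure D4:**
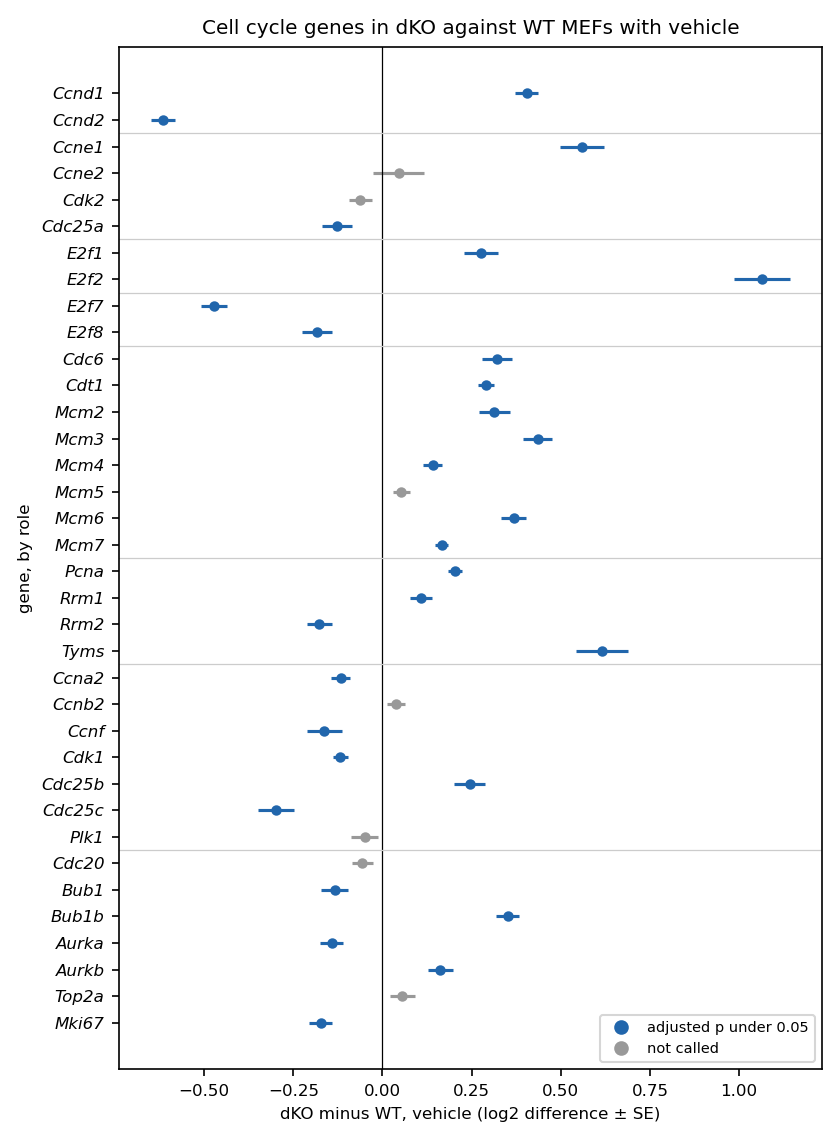
Difference between dKO and WT MEFs with vehicle for the 36 genes, in log2 with SE, ordered by role. E2f2 at 1.06, Tyms at 0.62 and Ccne1 at 0.56 stand highest, and Ccnd2 at -0.62 and E2f7 at -0.47 lowest.

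In hepatocytes AICAR changed 10 of the 36 genes in each genotype. In dKO hepatocytes 3 rose and 7 fell, where 10.5% of all genes rose and 7.31% fell. In WT hepatocytes 2 rose and 8 fell, where 8.51% rose and 7.99% fell. Both genotypes shared the rises of Ccnb2 and Rrm2 and the falls of Mcm4, Mcm5, Mcm7, Pcna and Tyms. Here too the share of all genes called in both genotypes was not counted. The median difference of the 36 genes was -0.05 in both genotypes, against 0.04 for all genes.

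Ccnb2 had the largest change. Its preparation means were 6.91 and 7.06 in dKO hepatocytes with AICAR, against 5.27 and 5.36 with vehicle. In WT hepatocytes they were 6.09 and 5.87 with AICAR, against 5.29 and 5.20 with vehicle. The groups did not overlap, and both dKO preparations with AICAR lay above both WT preparations with AICAR. Ccnb2 rose by 1.67 ± 0.06 in dKO and by 0.73 ± 0.06 in WT hepatocytes (adjusted p = 4.22e-08 and 5.68e-05). The rise was larger in dKO hepatocytes by 0.94 ± 0.09 (adjusted p = 0.00105), the one gene of the 36 with such a call, where 0.154% of all genes had a higher and 0.154% a lower effect in dKO cells. Ccnb2 is measured by 1 probe set, and these calls held with each preparation left out in turn. Its level with vehicle was below the median gene, at 6.87.

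Rrm2 had 8.66 and 8.68 in dKO hepatocytes with AICAR, against 7.27 and 7.94 with vehicle. In WT hepatocytes it had 9.50 and 8.32 with AICAR, against 7.84 and 7.85 with vehicle. The preparations with AICAR were above those with vehicle in both genotypes, but by unequal amounts. Rrm2 rose by 1.06 ± 0.23 in each genotype (adjusted p = 0.00888 in dKO and 0.00956 in WT), and all 3 of its probe sets had that sign. Without preparation 1 of the same genotype the rise was 0.74 in dKO and 0.46 in WT hepatocytes and was no longer called.

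Mcm7 fell. It had 9.43 and 9.40 in dKO hepatocytes with AICAR, against 10.06 and 9.96 with vehicle, and 9.56 and 9.40 in WT hepatocytes with AICAR, against 9.90 and 10.08 with vehicle. No overlap was present in either genotype. Mcm7 fell by 0.59 ± 0.08 in dKO and by 0.51 ± 0.08 in WT hepatocytes (adjusted p = 4.01e-04 and 0.00120), with the same sign on all 4 of its probe sets and as a call with each preparation left out in turn. In MEFs the same gene had risen by 0.08 in dKO and 0.07 in WT cells. After quantile normalization its dKO rise in MEFs was 0.03 and not called. Its WT rise in MEFs was not called without the intensity trend.

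**Figure D5:**
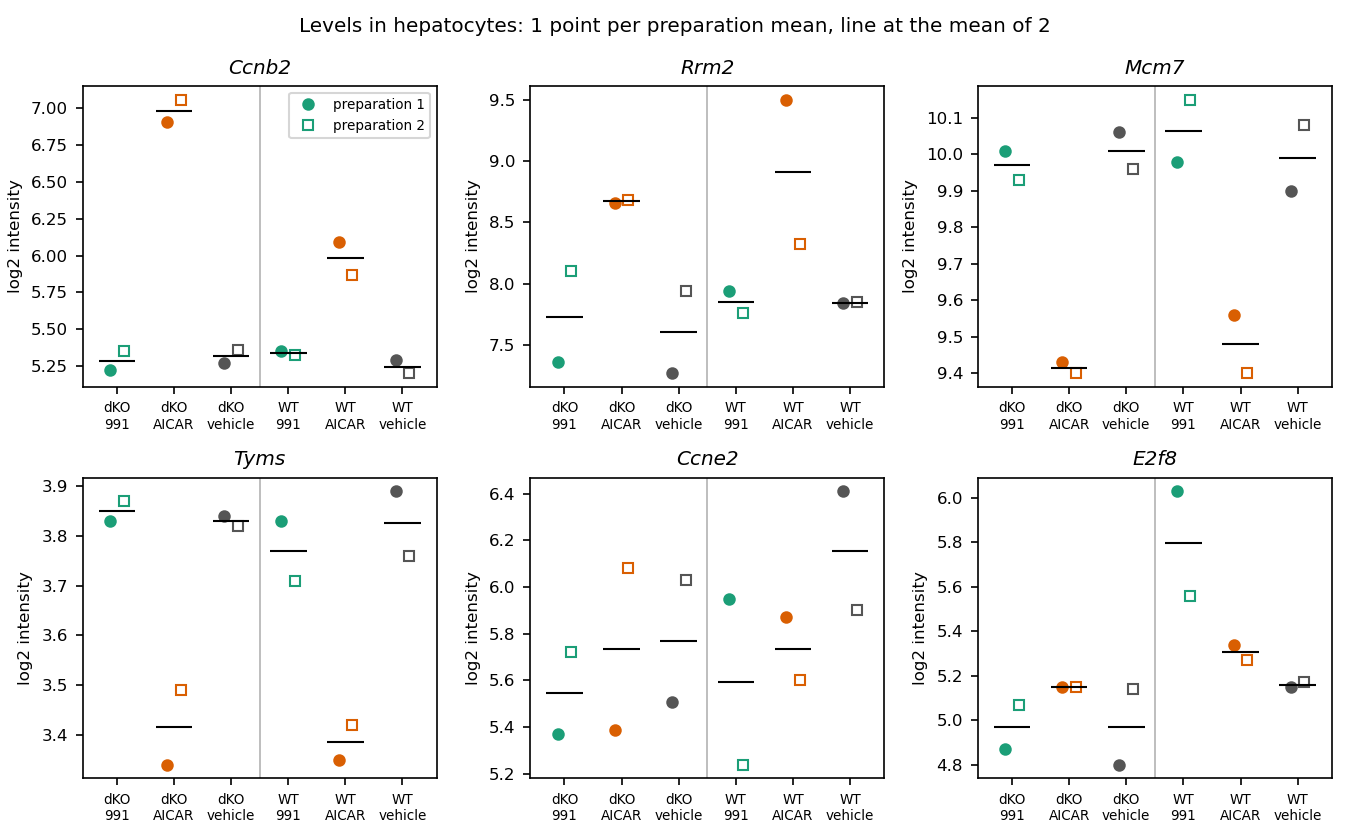
Log2 intensity of Ccnb2, Rrm2, Mcm7, Tyms, Ccne2 and E2f8 in hepatocytes, with 1 point per preparation (filled circle for preparation 1, open square for preparation 2) and a line at the mean. Ccnb2 and Rrm2 with AICAR lie above vehicle and Mcm7 and Tyms below it in both genotypes, and E2f8 is highest in WT cells with 991.

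The other falls with AICAR were smaller. Mcm5 fell by 0.41 in dKO and 0.38 in WT hepatocytes, Mcm4 by 0.30 and 0.27, and Pcna by 0.16 and 0.26. With the mean of all probe sets Mcm5 was at -0.22 in dKO and -0.21 in WT hepatocytes and Mcm4 at -0.22 in dKO hepatocytes, with no call. Tyms fell by 0.41 and 0.45 on a probe set that lay at 3.34 to 3.89 over these groups, far below the median gene at 6.87, and the mean of its 4 probe sets gave -0.08 in each genotype and no call. Ccnd1 (-0.32) and Ccne1 (-0.29) fell in dKO hepatocytes and Cdc6 rose there (0.19 ± 0.06). Cdc6 lay at 3.39 and 3.40 in dKO hepatocytes with AICAR, against 3.27 and 3.16 with vehicle, also far below the median gene, and its call ended with any 1 of the 4 preparations left out (0.13 to 0.25). In WT hepatocytes Ccne2 (-0.42), Cdk2 (-0.31) and Cdc25a (-0.20) fell, and with the mean of all probe sets Cdk2 was at -0.15 and Cdc25a at -0.18, with no call.

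Leaving out 1 preparation per genotype lowered these counts. Without dKO preparation 1 the dKO count was 2, with Mcm5 at -0.16, Mcm4 at -0.17 and Ccnd1 at -0.09, and without WT preparation 1 the WT count was 2. In both cases Ccnb2 and Mcm7 were called. Markers of other liver cells differed with AICAR as well. Of 6 endothelial markers 4 rose in dKO and 3 in WT hepatocytes, with summed intensity at 9.92 to 10.08 in dKO cells with AICAR against 9.53 to 9.81 with vehicle, and at 9.93 to 10.08 in WT cells with AICAR against 9.55 to 9.78 with vehicle. Of 6 Kupffer cell markers 4 rose in dKO and none in WT hepatocytes, and of 4 stellate markers 1 rose in dKO and 2 in WT hepatocytes. Of 4 cholangiocyte markers 1 fell in each genotype, and their summed intensity was 8.87 to 8.94 in dKO cells with AICAR against 9.05 to 9.20 with vehicle, and 8.53 to 8.74 in WT cells with AICAR against 8.89 or more with vehicle. Of 7 hepatocyte markers 4 rose in dKO and 3 in WT cells. The part of these cells in the changes of Ccnb2, Rrm2 and Mcm7 was not tested.

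With 991, no gene of the 36 was called in dKO hepatocytes (limma, adjusted p under 0.05). Of all genes 0% rose and 0.00550% fell. At an unadjusted p under 0.05 the count was 1 of the 36, and the share of all genes at that p was not counted. In WT hepatocytes 2 genes rose and 2 fell, where 3.72% of all genes rose and 2.36% fell. E2f8 had 4.87 and 5.07 in dKO hepatocytes with 991, against 4.80 and 5.14 with vehicle. In WT hepatocytes it had 6.03 and 5.56 with 991, against 5.15 and 5.17 with vehicle. The WT groups did not overlap and the dKO groups did. E2f8 rose by 0.63 ± 0.11 in WT hepatocytes (adjusted p = 0.00582) and differed by -0.001 in dKO hepatocytes, and the difference between these effects was -0.63 ± 0.15, which was not called (adjusted p = 0.146).

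Cdt1 rose with 991 in WT hepatocytes, by 0.40 ± 0.06 (adjusted p = 0.00240), with 9.43 and 9.59 against 8.96 and 9.26 for vehicle. In dKO hepatocytes it had 9.26 and 9.05 with 991, against 9.25 and 8.95 with vehicle. Preparations of each group overlapped in dKO cells and not in WT cells. Ccne2 fell by 0.56 ± 0.10 and Ccnd2 by 0.28 ± 0.06 in WT hepatocytes. Each of these 4 calls ended without 1 or both of the WT preparations. Without preparation 1, E2f8 was at 0.39, Cdt1 at 0.33 and Ccnd2 at -0.25, and without preparation 2, Cdt1 was at 0.47, Ccne2 at -0.46 and Ccnd2 at -0.32. No gene of the 36 had a 991 effect that differed between dKO and WT hepatocytes in the limma test. Of all genes 0.0824% had a higher and 0.330% a lower effect in dKO cells. At an unadjusted p under 0.05, 1 of the 36 was higher and 3 were lower, again with no count of all genes.

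Set against 991 at its own dose, AICAR was higher for 2 genes and lower for 3 in dKO hepatocytes (10.7% and 7.54% of all genes), and higher for 2 and lower for 9 in WT hepatocytes (9.72% and 9.05%). Ccnb2 was higher with AICAR than with 991 by 1.70 ± 0.06 in dKO and 0.64 ± 0.06 in WT hepatocytes, and Mcm7 was lower by 0.55 ± 0.08 and 0.59 ± 0.08. Cdt1 and E2f8 were lower with AICAR in WT hepatocytes, by 0.46 and 0.49. E2f8 had no call there without WT preparation 1, at -0.29. The WT count was 4 without WT preparation 1, and the dKO count was 3 without dKO preparation 1 and 8 without dKO preparation 2.

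With vehicle, no gene of the 36 was called between dKO and WT hepatocytes in the limma test. Of all genes 0% were called in either direction. At an unadjusted p under 0.05 there was 1 of the 36, lower in dKO cells, and all genes were not counted at that p. With preparation 1 of one genotype paired with preparation 2 of the other, a pairing chosen after seeing the data, 2 were called, both lower in dKO cells. That pairing was drawn from these same values, so its 2 calls are no test of the genotype. They are also given without the share of all genes. Mcm6, a helicase subunit, had 8.50 in preparation 1 and 6.49 in preparation 2 of dKO hepatocytes with vehicle, and 6.39 and 8.14 in those of WT hepatocytes. Preparation 1 was the high one in dKO cells and preparation 2 in WT cells. A gap between preparations above 0.5 in either direction was present for 8 of the 36 genes in dKO and 5 in WT hepatocytes with vehicle, against 2.26% and 2.13% of all genes. Mcm3, Mcm4 and Mcm5 had such a gap in both genotypes, with the sign of Mcm6, and Ccne2 had one of the opposite sign.

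A list of 67 other measured genes of the cell cycle was tested in the same way. With AICAR 27 rose and 12 fell in dKO MEFs (20.4% and 19.8% of all genes), and 30 rose and 8 fell in WT MEFs (19.6% and 15.5%). E2f3, a further E2F activator, rose by 0.59 in dKO and 0.51 in WT MEFs, and Wee1, the kinase that holds Cdk1 inactive, by 0.54 and 0.53. Myc, a transcription factor that drives growth, fell by 0.87 ± 0.04 in dKO MEFs and by 0.32 ± 0.04 in WT MEFs, and its effect differed by -0.55 ± 0.05 (adjusted p = 6.74e-09). Cdkn1a, which encodes the CDK inhibitor p21, fell by 0.66 ± 0.06 in dKO MEFs and rose by 0.21 ± 0.06 in WT MEFs, and its effect differed by -0.88 ± 0.08 (adjusted p = 1.52e-09). Cdkn2b, the inhibitor p15, fell by 0.47 in dKO MEFs and rose by 0.35 in WT MEFs. In all, 15 of the 67 had an AICAR effect that differed between the MEF genotypes, 5 of them more positive and 10 more negative in dKO cells (4.18% and 7.93% of all genes).

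With 991, 7 of the 67 rose and 3 fell in dKO MEFs (1.88% and 1.58% of all genes), and 26 rose and 1 fell in WT MEFs (14.0% and 5.65%). The effect on Myc, Cdkn2b, Cdkn2a and Dbf4, an activator of replication origins, was more negative in dKO MEFs, by 0.31, 0.26, 0.19 and 0.16. With vehicle 30 of the 67 were higher and 21 lower in dKO than in WT MEFs (28.0% and 19.2% of all genes), with Cdkn1a at 1.15 ± 0.06 and Pttg1, the gene of securin, at 1.14 ± 0.04.

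In hepatocytes, 5 of the 67 rose and 7 fell with AICAR in dKO cells (10.5% and 7.31% of all genes), and 4 rose and 6 fell in WT cells (8.51% and 7.99%). Rbl2, a pocket protein related to the retinoblastoma protein, rose by 0.73 ± 0.13 in dKO and 0.58 ± 0.13 in WT hepatocytes, and Cdkn1a by 0.38 ± 0.03 and 0.36 ± 0.03. Myc differed by -0.07 in dKO hepatocytes and rose by 0.47 ± 0.05 in WT hepatocytes with AICAR, and its effect was lower in dKO hepatocytes by 0.54 ± 0.06 (adjusted p = 0.00390). With 991 none of the 67 was called in dKO hepatocytes, and in WT hepatocytes 4 rose and 3 fell (3.72% and 2.36% of all genes), with Myc at 0.44 ± 0.05 and Wee1 at 0.38 ± 0.07.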

How the data were processed

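The authors deposited log2 intensities per probe set, made with RMA and Partek per the submitters' processing notes, with no versions. Per the labels, 1 outlying array was removed in MEFs and 1 in hepatocytes. Of 45101 probe sets 64 controls were dropped, and 34945 had 1 gene symbol in the platform annotation, 34741 of them matched by Entrez identifier, which gives 18193 genes. A gene was represented by its brightest probe set on average, chosen separately in MEFs and hepatocytes, with no filter on dim genes. The number of arrays limits the precision.

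The 37 genes, the other lists and the tests were chosen with earlier results of these data known. Named were the called genes, by size and role, the other cell cycle genes of largest change, and Prkaa1 and Prkaa2. Linear models were fitted in R 4.3.3 with limma 3.58.1, moderated by eBayes with an intensity trend, with Benjamini-Hochberg adjustment over all 18193 genes. MEFs had a mean per group with 17 residual degrees of freedom. Hepatocyte arrays were averaged to 12 preparation means with the preparation within genotype as a block, which left 4 degrees of freedom, and 2 for dKO against WT. Means of 1 preparation under different treatments deviated together from their group means (median r = 0.584 across genes). Technical numbers did not pair MEF arrays (median r = -0.003). The model was also run on simulated data drawn with no preparation effect, so that run is no check of the preparation block. Python 3.11.15 with pandas 2.3.3 and matplotlib 3.10.9 prepared tables and figures.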

Additional observations from a re-analysis of the deposited data

Results flagged for a closer look

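Of 180 groups of 4 MEF arrays tested for an array far from the others (Dixon's criterion), 9 had one, and chance gives about 1 in 20. WT AICAR replicate 1 was high for Ccne2 (9.86, the nearest other 9.62) and low for Cdk2 (11.04, the nearest other 11.11). WT vehicle replicate 2 was high for E2f7 (10.35 against 10.22), Mcm2 (11.68 against 11.56) and Mcm6 (11.70 against 11.54). Among dKO arrays with AICAR, Cdc25a was high in replicate 2 (9.39 against 9.31), Cdc25c was high in replicate 1 (9.50 against 9.42) and E2f7 was low in replicate 4 (9.46 against 9.52). Plk1 was low in dKO vehicle replicate 2 (10.44 against 10.55).

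The test of the difference between genotypes set apart the AICAR effect on 11 genes in MEFs, as the effect in dKO minus that in WT cells. It was -0.41 for Ccnd1, -0.40 for E2f2, -0.37 for Cdc25b and for Ccne2, -0.22 for Ccnd2 and for E2f1, and -0.20 for Cdc25a. It was 0.23 for Cdc6, 0.21 for Bub1, 0.18 for Mcm4 and 0.12 for Mcm5. In hepatocytes the same test set apart Ccnb2, at 0.94.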

How the results depend on the processing

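For MEFs, counts of called genes held within 1.5 times under most alternatives. With 991 in WT MEFs the count of 10 was 4 after quantile normalization and 6 without the intensity trend. Quantile normalization also ended the AICAR calls of Cdc25a (0.04), Mcm7 (0.03) and Mki67 (0.03) in dKO MEFs. In WT MEFs it ended those of Bub1 (0.07), E2f1 (0.08) and Mcm4 (0.06). MEF technical numbers shared only a number, and with that number as a replicate block the counts with AICAR were 26 in dKO and 23 in WT MEFs, and no count of MEF calls moved by over 1.5 times. With arrays left out in turn, counts ranged from 24 to 26 (AICAR, dKO), 20 to 24 (AICAR, WT), 9 to 12 (AICAR, difference between genotypes), 2 to 5 (991, dKO), 3 to 15 (991, WT), 0 to 4 (991, difference), 22 to 24 (AICAR against 991, dKO), 11 to 15 (AICAR against 991, WT) and 29 to 31 (dKO against WT). The mean of all probe sets turned the sign of Mcm6 with 991 in WT MEFs (-0.0047), Top2a with AICAR in dKO (0.013) and WT MEFs (0.038), Mcm4 with AICAR in WT MEFs (-0.044), and Aurka (0.086) and Mcm4 (-0.022) between dKO and WT MEFs. The cause was not tested. For hepatocytes, without the preparation as a block (no replicate block) counts were 4 (AICAR, dKO), 3 (AICAR, WT), 0 (991, WT), 3 (AICAR against 991, dKO) and 5 (AICAR against 991, WT). With every array taken as a sample, which counts technical replicates as independent, they were 20 (AICAR, WT), 4 (AICAR, difference), 1 (991, dKO), 12 (991, WT), 7 (991, difference) and 17 (AICAR against 991, dKO). Genes at or above the median level leave 15 of the 36, and all 25 hepatocyte calls on genes left in were kept. Ccnb2 was not left in, so its difference between genotypes was not tested there. The counts at this setting were 0 (AICAR, difference), 2 (991, WT) and 7 (AICAR against 991, WT). They were 8 after quantile normalization (AICAR against 991, dKO). With preparations left out in turn they ranged from 2 to 9 (AICAR, dKO), 2 to 9 (AICAR, WT), 1 to 4 (991, WT), 3 to 8 (AICAR against 991, dKO) and 4 to 12 (AICAR against 991, WT). Same-numbered preparations of dKO and WT deviated in opposite directions (median r = -0.740). A crossed pairing, chosen after seeing the data, gave 2 calls between dKO and WT hepatocytes, both lower in dKO cells. As the pairing came from these same values, those calls are no test of the genotype.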
